A study of Saccharomyces cerevisiae with 21 samples.

Results

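Transcripts of 54 genes that encode enzymes of amino acid biosynthesis were followed through drying and rehydration of the diploid yeast strain BY4743. The members were chosen by name, and each is represented by the only probe set whose annotation lists that gene alone. They are 54 of 5656 genes named in this way, on an array with 9275 probe sets tested. The pathways are represented by 10 genes each for branched-chain and for aromatic amino acids, 7 for lysine, 5 each for arginine, for threonine and homoserine, for serine and glycine, and for asparagine, glutamine and glutamate, 4 for histidine and 3 for proline. Enzymes of sulfur amino acid synthesis are not among the members.

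There were 21 arrays in 7 groups of 3. The control cells came from a growing culture in YPD (yeast extract, peptone and glucose) kept at 30 °C, harvested at an A600 of 0.8 and sampled on transfer to YPD diluted 1:20. The second group had dried for 18 h in dishes at 22 to 25 °C and is called 50% dry in its titles. The dry group had dried for 42 h and then been held for 72 h at 20% relative humidity. The last groups had been returned to 1:20 YPD for 15, 45, 90 and 360 min, cells of several dishes having been pooled when the liquid was added. All groups are the same strain. By its known genotype BY4743 lacks URA3 and LEU2, carries a partial deletion of HIS3, and has a single working copy of LYS2 and of MET17, so its histidine and leucine pathways each lack a step. The labels give the strain name without these alleles. They do not say whether the 3 samples of a group came from separate cultures, so the p-values rest on a spread that may be only technical.

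Yeast makes every protein amino acid from central metabolites when none is supplied, and takes amino acids up when they are plentiful, as in YPD. Many of these enzymes are controlled together by Gcn4, a transcription activator whose own synthesis is raised at the level of translation when an amino acid runs short, a response called general amino acid control. Several pathways also have a regulator of their own, such as Leu3, Lys14 or the Arg80 and Arg81 proteins, and the enzyme of the first committed step is often inhibited by the end product. For some steps the genome keeps a pair of paralogous enzymes that differ in location or in feedback control.

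Signals are in the linear units of the deposited table. Changes are log2 differences ± SE from a limma fit to all 21 arrays, and a gene is said to have risen or fallen where the p-value, adjusted over all 9275 probe sets, was under 0.05. Background was a signal of 29.6, the 95th percentile of 19 negative control probe sets, and 78.6% to 81.4% of probe sets on an array lay above it. Of the 54 members, 50 were above background on all 21 arrays, and HOM3, SER2, PRO1 and ARG3 were at or below it on some. Arrays had been scaled to like trimmed means, so every change is relative to the other transcripts of its array, and fewer cells contributing RNA and less RNA per cell cannot be told apart. The highest signal on an array was 24111.7 to 25607.7 at 360 min, against 6281.0 to 6607.6 in the control. The median array signal was 131.0 to 132.5 at 360 min, against 148.5 to 155.1 in the control. The 3′ to 5′ signal ratio of ACT1, read by probe sets of the chip as a gauge of RNA integrity, also differed. On the log2 scale the ACT1 ratio was -0.46 to -0.18 in the control, 0.56 to 0.71 at 18 h, 0.95 to 1.15 in the dry state and 2.28 to 2.37 at 360 min. For SPT15 it was 1.62 to 1.68 in the control, 1.55 to 1.98 at 18 h, as low as 1.21 and below all control arrays in the dry state, and 2.51 to 2.97 at 360 min. For SRB4 it was 0.53 to 1.16 in the control, 1.65 to 1.96 at 18 h, 1.52 to 1.82 in the dry state and 1.90 to 2.31 at 360 min. The 3 genes thus differ in their course, and the part of these ratios in the changes below was not tested.

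Most of the 54 members had their highest signals in growing cells. The median member had a signal of 2241.7 to 2325.5 on the control arrays, 465.2 to 566.6 at 18 h of drying, 447.2 to 484.8 in the dry state, 349.0 to 416.7 at 15 min, 377.9 to 429.2 at 45 min, 354.7 to 369.4 at 90 min and 354.3 to 400.5 at 360 min of rehydration. The mean signal was highest in the control for 46 of the 54. The time of the lowest mean varied. It was 360 min for 14 members, the dry state and 15 min for 12 each, 45 min for 7, the control and 18 h for 4 each and 90 min for 1. All 54 members differed among the 7 time points by limma's moderated F test, as did 84.2% of all probe sets tested.

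**Figure D1:**
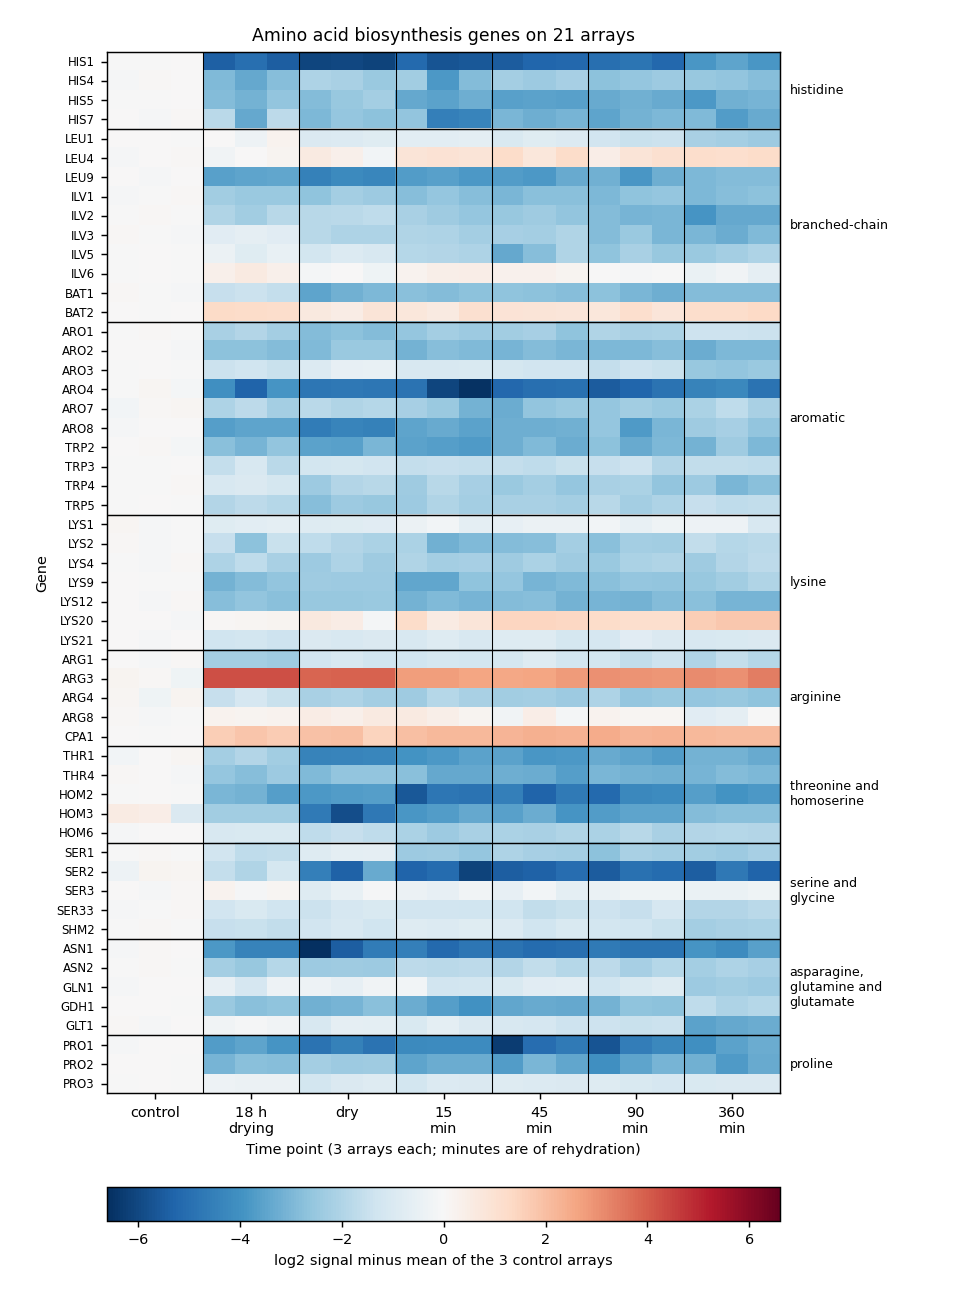
Log2 signal of each of the 54 genes (rows, grouped by pathway) on each of the 21 arrays (columns, 3 per time point), minus the mean of the 3 control arrays of that gene. Blue is below and red above the control. Most rows turn blue at 18 h of drying and remain so, while ARG3, CPA1 and BAT2 are red from 18 h on and LYS20 and LEU4 are red during rehydration. Scaling arrays on the spike-in controls turns LEU4, BAT2, LYS20 and CPA1 below the control at 360 min.

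By 18 h of drying the members' median was -1.89 relative to the control, against -2.33 at 360 min, or -2.17 and -4.65 with spike-in scaling. Relative to the control, 43 of the 54 members fell there, 4 rose and 7 did not pass. The background in this comparison was 63.5% of probe sets called, 27.3% lower and 36.2% higher, so 79.6% of members fell against 27.3% of all probe sets. The median over all probe sets was 0.11. The 3 arrays of 18 h and the 3 of the control did not overlap for 51 of the 54 members, 45 lower and 6 higher, while 73.7% of all probe sets did not overlap, 32.9% being lower. No array held undried cells kept for 18 h in 1:20 YPD at 22 to 25 °C, so water loss, medium, temperature and time cannot be told apart.

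The pathways did not move by the same amount. Every measured member of the histidine, aromatic, threonine and homoserine, and proline pathways fell, with median changes of -2.96, -2.05, -2.30 and -2.89. In lysine synthesis 6 of 7 fell (median -1.91), in serine and glycine synthesis 4 of 5 (median -1.50), and among the enzymes of asparagine, glutamine and glutamate 4 of 5 (median -2.20). The branched-chain pathway was split, with 5 of 10 falling and 2 rising (median -0.64). In arginine synthesis 2 of 5 fell and 2 rose, with a median of 0.23, or -0.06 when arrays were scaled on the spike-in controls.

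**Figure D2:**
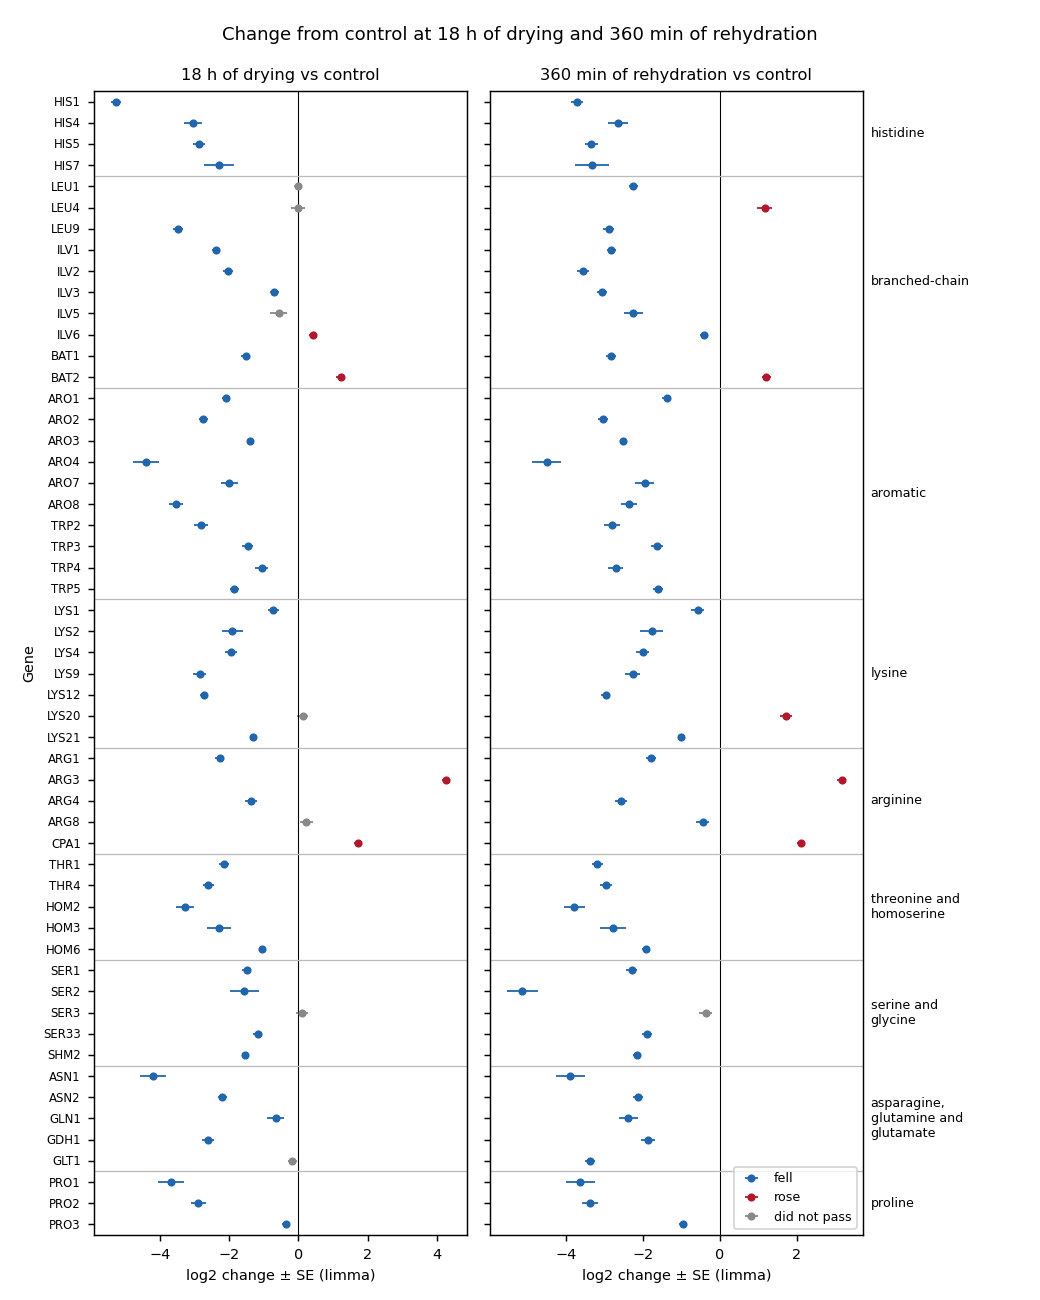
Log2 change from control ± SE (limma, 3 arrays per group) for each of the 54 genes, at 18 h of drying (left panel) and at 360 min of rehydration (right panel). Blue points fell, red points rose and grey points did not pass an adjusted p of 0.05. Falls outnumber rises by 43 to 4 on the left and by 48 to 5 on the right, where LEU4, BAT2, LYS20 and CPA1 turn negative with spike-in scaling.

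Histidine synthesis held the deepest fall at 18 h, and for all 4 of its genes the 18 h arrays lay below the control arrays. HIS1 (YER055C) encodes ATP phosphoribosyltransferase, the first enzyme of the pathway and the one that histidine inhibits. Its signals were 101.0, 131.3 and 95.2 at 18 h, against 4161.4, 4102.2 and 4344.8 in the control, a change of -5.28 ± 0.15 (adjusted p = 4.49e-14). It read lower still in the dry state, at 63.1, 65.6 and 61.4, or -6.05 ± 0.15 relative to the control. During rehydration HIS1 rose, to 289.4, 373.4 and 297.7 at 360 min, which was 2.33 ± 0.15 above the dry state and still 3.72 log2 units below the control (-3.72 ± 0.15). With spike-in scaling the difference from dry was 0.32 and did not pass. HIS4, which catalyses several steps, had 552.1, 403.9 and 586.9 at 18 h, against 3916.8, 4424.5 and 4205.0 in the control (-3.04 ± 0.26). It had 740.7, 680.7 and 589.6 at 360 min against 1010.3, 946.7 and 776.7 in the dry state, a difference of -0.44 ± 0.26 that did not pass. HIS5, the histidinol phosphate aminotransferase, had 142.2, 118.1 and 167.4 at 18 h against 1017.9, 1026.7 and 1054.9 in the control, and fell further to 74.2, 115.6 and 123.3 at 360 min, against 140.9, 182.3 and 220.0 in the dry state (-0.81 ± 0.18). That last difference did not pass with quantile normalization (-0.34) or median centring (-0.28). HIS7, an amidotransferase in mid pathway, fell by 2.30 at 18 h (-2.30 ± 0.44). Its 18 h arrays were spread, replicate 2 reading 115.4 and the others 344.8 and 355.5. Replicate 2 was the 18 h array scanned on the day of the controls.

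In branched-chain synthesis the genes of the common valine and isoleucine steps fell at different times. ILV1, the threonine deaminase that starts isoleucine synthesis, had 457.2, 414.0 and 415.0 at 18 h, against 2158.4, 2206.8 and 2398.4 in the control (-2.39 ± 0.12), and its mean at later times stayed between 2.43 and 2.84 log2 units below the control. ILV2, the catalytic subunit of acetolactate synthase, had 596.3, 486.9 and 661.1 at 18 h, against 2336.1, 2466.6 and 2329.0 in the control (-2.04 ± 0.15). It fell again later, to 159.0, 229.2 and 225.2 at 360 min, against 664.2, 695.4 and 746.4 in the dry state (-1.80 ± 0.15). ILV6, the regulatory subunit of the same enzyme, did not fall at 18 h. It read 4553.5, 5440.8 and 4676.3 at 18 h, against 3629.6, 3792.5 and 3579.2 in the control, a rise of 0.41 ± 0.10 that did not pass with median centring (0.26) or spike-in scaling (0.12). At 360 min it was 0.42 log2 units below the control (-0.42 ± 0.10).

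The later enzymes of the pathway fell mainly after 18 h. ILV3, the dihydroxyacid dehydratase, changed by -0.70 ± 0.13 at 18 h and by a further -1.27 ± 0.13 between 18 h and the dry state. It had 483.4, 413.0 and 518.4 at 360 min against 4140.2, 3935.0 and 3792.0 in the control (-3.07 ± 0.13). ILV5, the reductoisomerase, did not pass at 18 h (-0.57 ± 0.25) and reached -2.25 ± 0.25 at 360 min. Its 3 arrays at 45 min were far apart, at 384.7, 562.8 and 999.4. LEU1, the isopropylmalate isomerase of leucine synthesis, read 3439.6, 2700.3 and 3958.3 at 18 h against 3371.1, 3421.7 and 3314.1 in the control (-0.02 ± 0.12). It then fell to 1738.7, 1808.8 and 1918.4 in the dry state and 770.6, 722.1 and 634.9 at 360 min, which was 2.25 log2 units below the control (-2.25 ± 0.12).

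Among the aromatic pathway's 10 members the largest changes were at its entry and at an aminotransferase. ARO4 encodes the tyrosine-inhibited DAHP synthase, which with ARO3 opens the shikimate pathway. Its signals were 172.3, 72.9 and 192.1 at 18 h, against 2815.0, 3065.8 and 2632.8 in the control (-4.40 ± 0.37). ARO4 remained low to the end, at 133.1, 148.8 and 97.1 at 360 min (-4.51 ± 0.37 relative to the control). ARO8, an aromatic aminotransferase, had 376.1, 428.7 and 425.4 at 18 h, against 4570.6, 4912.3 and 4771.9 in the control (-3.54 ± 0.21). It fell to 192.1, 228.9 and 215.1 in the dry state and then rose, to 425.7, 480.4 and 414.7 at 15 min and 940.3, 1032.4 and 792.1 at 360 min (2.12 ± 0.21 above dry, or 0.11 with spike-in scaling). ARO3, the DAHP synthase inhibited by phenylalanine, fell less, with 1182.1, 1299.5 and 1141.4 at 18 h against 3185.5, 3281.0 and 3111.6 in the control (-1.40 ± 0.10). It rose to 1698.0, 2187.8 and 2237.0 in the dry state and ended at 564.2, 521.6 and 593.8 at 360 min (-1.86 ± 0.10 relative to dry).

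The other aromatic genes lay between these. At 18 h, ARO2, the chorismate synthase, and TRP2, part of anthranilate synthase, changed by -2.75 ± 0.13 and -2.82 ± 0.21. ARO1, which encodes the enzyme of the middle shikimate steps, and TRP5, the tryptophan synthase, changed by -2.10 ± 0.12 and -1.86 ± 0.13. ARO7, the chorismate mutase, fell to 82.9, 101.8 and 72.7 at 18 h, against 296.5, 353.5 and 373.3 in the control. TRP3 and TRP4, of mid tryptophan synthesis, changed by -1.47 ± 0.15 and -1.06 ± 0.19. Between the dry state and 360 min ARO1, ARO8, TRP2 and TRP5 rose and ARO2, ARO3, TRP3 and TRP4 fell. That is 40.0% of the pathway's members each way, against 21.2% of all probe sets higher and 40.7% lower. Under spike-in scaling ARO1, TRP2 and TRP5 were lower than dry instead (-0.56, -1.44 and -1.04). With median centring ARO2 and TRP3 were slightly higher than dry (0.08 and 0.10, neither passing), and TRP3 also with quantile normalization (0.11, not passing). The TRP2 call was lost without dry replicate 1, dry replicate 2 or 360 min replicate 2 (0.34 without the last of these).

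Lysine is made in yeast by the alpha-aminoadipate route, which starts with the homocitrate synthases LYS20 and LYS21. LYS9 and LYS12 had the largest falls. LYS9, a saccharopine dehydrogenase, had 81.9, 98.4 and 118.8 at 18 h, against 729.0, 693.9 and 709.0 in the control (-2.85 ± 0.19). LYS12, the homoisocitrate dehydrogenase, had 195.4, 227.9 and 203.4 at 18 h, against 1391.6, 1304.2 and 1454.5 in the control (-2.73 ± 0.11). It stayed near there, with 202.7, 163.8 and 165.4 at 360 min against 246.3, 245.0 and 257.4 in the dry state, a fall of 0.50 (-0.50 ± 0.11) whose sign turned with quantile normalization (0.04) and median centring (0.02). LYS4, the homoaconitase, and LYS2, the aminoadipate reductase, changed by -1.95 ± 0.17 and -1.91 ± 0.30 at 18 h. LYS2 read 92.4 on 18 h replicate 2 and 205.9 and 213.7 on the others. LYS1, the last enzyme, changed least of those that fell at 18 h (-0.72 ± 0.17) and read 1063.5, 1039.3 and 627.3 at 360 min against 1429.3, 1255.8 and 1278.8 in the control (-0.58 ± 0.17, or -0.33 without 360 min replicate 3).

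LYS20 stood apart from the rest of its pathway. It had 4463.3, 4550.4 and 4762.3 at 18 h, against 4280.0, 4353.5 and 4009.8 in the control, a difference of 0.12 ± 0.16 that did not pass. During rehydration it rose, to 11061.2, 11372.0 and 11035.8 at 45 min and 13099.3, 14359.9 and 14540.2 at 360 min. The last of these was 1.73 ± 0.16 above the control (adjusted p = 6.88e-08) and 1.39 ± 0.16 above the dry state, whose arrays read 6501.4, 6020.6 and 3890.9. These rises depend on the scaling: with spike-in controls the changes were -0.59 relative to the control and -0.62 relative to dry, and with quantile normalization the difference from dry was 0.17 and did not pass.

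The arginine pathway was the one in which rises were as frequent as falls at 18 h. ARG3 (YJL088W), the ornithine carbamoyltransferase, is repressed by arginine through the Arg80 and Arg81 proteins. Its signals were 646.2, 650.4 and 652.2 at 18 h, against 38.6, 35.5 and 27.7 in the control, the last of which was below background. The change of 4.27 ± 0.12 (adjusted p = 1.99e-14) was the largest rise among the members. ARG3 then declined to 488.2, 490.5 and 494.7 in the dry state and 229.9, 225.6 and 207.4 at 15 min (-1.15 ± 0.12 relative to dry). At 360 min it read 288.4, 271.5 and 350.3, still 3.17 ± 0.12 above the control, and it was higher than the control in all scalings tried. CPA1, the small subunit of the arginine-controlled carbamoyl phosphate synthetase, had 3620.8, 4143.6 and 3746.6 at 18 h, against 1168.2, 1147.5 and 1184.8 in the control (1.72 ± 0.11). It read 4494.0, 4554.4 and 3184.9 in the dry state and 5231.2, 4937.0 and 5041.3 at 360 min, the last a change of 2.12 ± 0.11 from the control that became -0.20 with spike-in scaling.

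The genes of the last arginine steps fell. ARG1, the argininosuccinate synthetase, had 434.3, 431.1 and 404.5 at 18 h, against 2058.1, 1957.2 and 2139.8 in the control (-2.28 ± 0.13). It regained part of this in the dry state, with 859.7, 970.7 and 838.0 (1.07 ± 0.13 relative to 18 h, the largest rise among the members at that step). ARG4, the argininosuccinate lyase, changed by -1.37 ± 0.16 at 18 h and by -2.57 ± 0.16 at 360 min relative to the control. ARG8, an aminotransferase of ornithine synthesis, fell late. It had 39.3, 43.2 and 62.8 at 360 min, against 91.9, 83.2 and 96.7 in the dry state (-0.93 ± 0.18, or -0.41 and not passing with median centring).

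All 5 genes of threonine and homoserine synthesis fell at 18 h, and 3 of them fell again before the dry state. HOM3, the aspartate kinase, is the first enzyme. It had 1001.6, 935.4 and 359.7 in the control, 140.7, 142.0 and 141.9 at 18 h and 27.0, 12.2 and 26.8 in the dry state. Control replicate 3 thus read under the other control arrays, although the calls of HOM3 against the control held without it. All dry arrays were below background, so that HOM3 was at least 25.9-fold lower dry than in the control and at least 4.78-fold lower than at 18 h. It rose to 95.6, 102.7 and 103.4 at 360 min, at least 3.40-fold above dry (not passing with spike-in scaling, at a fitted log2 change of 0.28). HOM2, the aspartate semialdehyde dehydrogenase, had 268.6, 250.5 and 174.9 at 18 h, against 2144.2, 2265.8 and 2199.4 in the control (-3.28 ± 0.27). It fell by a further 1.37 at 15 min of rehydration, to 46.1, 81.0 and 74.9, against 159.6, 171.8 and 177.4 in the dry state (-1.37 ± 0.27).

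THR1, the homoserine kinase, had 3387.9, 3952.4 and 4205.7 in the control, 817.9, 995.3 and 787.5 at 18 h, 182.8, 186.7 and 193.2 in the dry state and 444.5, 434.8 and 385.4 at 360 min. Its fall came in nearly equal steps, -2.15 ± 0.14 from control to 18 h and -2.20 ± 0.14 from 18 h to dry, and it rose by 1.17 ± 0.14 between dry and 360 min (-0.84 with spike-in scaling). THR4, the threonine synthase, fell at 18 h to 340.7, 286.3 and 380.5, against 2100.7, 2057.3 and 1906.5 in the control (-2.60 ± 0.16). HOM6, the homoserine dehydrogenase, fell least (-1.04 ± 0.10 at 18 h, -1.93 ± 0.10 at 360 min relative to the control).

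Serine is made from a glycolytic intermediate in 3 steps, and glycine largely from serine or threonine. SER2, the phosphoserine phosphatase, had 73.8, 55.7 and 97.4 at 18 h, against 171.2, 248.9 and 241.9 in the control (-1.56 ± 0.41). From the dry state to 360 min it was below background on every array, at 3.1 to 21.8, and was at least 7.45-fold lower than in the control at both ends of that span. SHM2, the cytosolic serine hydroxymethyltransferase, which makes glycine, had 1763.3, 1820.2 and 1649.3 at 18 h, against 4935.7, 5287.6 and 4910.9 in the control (-1.53 ± 0.11). It rose to 2809.4, 2666.6 and 2947.3 at 15 min, against 2067.3, 2393.0 and 2019.7 in the dry state (0.38 ± 0.11, or 0.26 and not passing with quantile normalization and -0.34 with spike-in scaling), and was down at 1074.8, 1129.5 and 1173.3 at 360 min (-0.94 ± 0.11 relative to dry). SER1, the phosphoserine aminotransferase, changed by -1.50 ± 0.14 at 18 h and by 0.82 ± 0.14 from 18 h to dry. It had 1248.8, 1460.8 and 1517.7 when dry and 425.8, 450.7 and 378.0 at 15 min (-1.75 ± 0.14), the largest fall among the members on addition of water.

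ASN1 and GDH1 carried the deepest 18 h falls among the enzymes that fix nitrogen into amides and glutamate. ASN1, an asparagine synthetase, had 330.2, 221.6 and 222.3 at 18 h, against 4458.4, 4828.1 and 4652.6 in the control (-4.20 ± 0.37). Its dry arrays were far apart, at 39.8, 106.5 and 186.3. The change from 18 h to dry was -1.45 ± 0.37 with all arrays and -0.85 without dry replicate 1, and the change from dry to 360 min, where the arrays read 307.8, 258.9 and 389.0, was 1.76 ± 0.37 with all and 1.16 without it (-0.24 with spike-in scaling). GDH1, the main NADP-linked glutamate dehydrogenase, had 743.5, 595.0 and 632.9 at 18 h, against 4074.1, 4059.5 and 3909.9 in the control (-2.62 ± 0.17). It rose late, to 1247.5, 981.7 and 1077.0 at 360 min, against 467.3, 640.9 and 610.9 at 90 min (0.95 ± 0.17, or -0.01 with spike-in scaling).

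The glutamine and glutamate synthases fell late instead. GLN1, the glutamine synthetase, had 2852.0, 1975.4 and 3374.4 at 18 h, against 4048.2, 4238.9 and 4348.1 in the control, a fall of 0.66 (-0.66 ± 0.24) that did not pass without control replicate 2 (-0.65), control replicate 3 (-0.63) or 18 h replicate 2 (-0.44). At 360 min its arrays read 785.7, 853.5 and 793.3, against 1673.1, 2066.8 and 2370.3 at 90 min (-1.32 ± 0.24). GLT1, the glutamate synthase, did not pass at 18 h (-0.18 ± 0.13). It then read 201.0, 223.9 and 240.4 at 360 min, against 895.5, 827.2 and 862.7 at 90 min (-1.96 ± 0.13, adjusted p = 2.20e-08), the largest fall among the members over that step.

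Proline synthesis, whose product is also a compatible solute in other organisms, fell as well. PRO1, the gamma-glutamyl kinase of the first step, had 55.3, 63.1 and 47.5 at 18 h, against 673.0, 721.8 and 723.2 in the control (-3.68 ± 0.37). It read 24.3, 31.6 and 23.9 in the dry state and 9.1, 21.4 and 28.1 at 45 min, the last 3 all below background. PRO1 had 42.3, 60.4 and 73.1 at 360 min, a rise of 1.12 ± 0.37 over dry that did not pass without 360 min replicate 3 (0.94) and became -0.89 with spike-in scaling. PRO2, the next enzyme, had 306.0, 376.3 and 367.5 at 18 h, against 2616.3, 2629.3 and 2518.1 in the control (-2.89 ± 0.21). PRO3, the last enzyme, changed least of the 3 at 18 h (-0.37 ± 0.10). It fell by a further 0.63 by the dry state (-0.63 ± 0.10) and was -0.97 ± 0.10 from the control at 360 min, where it read 1204.8, 1252.3 and 1265.4, against 2410.2, 2475.8 and 2403.4 in the control.

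**Figure D3:**
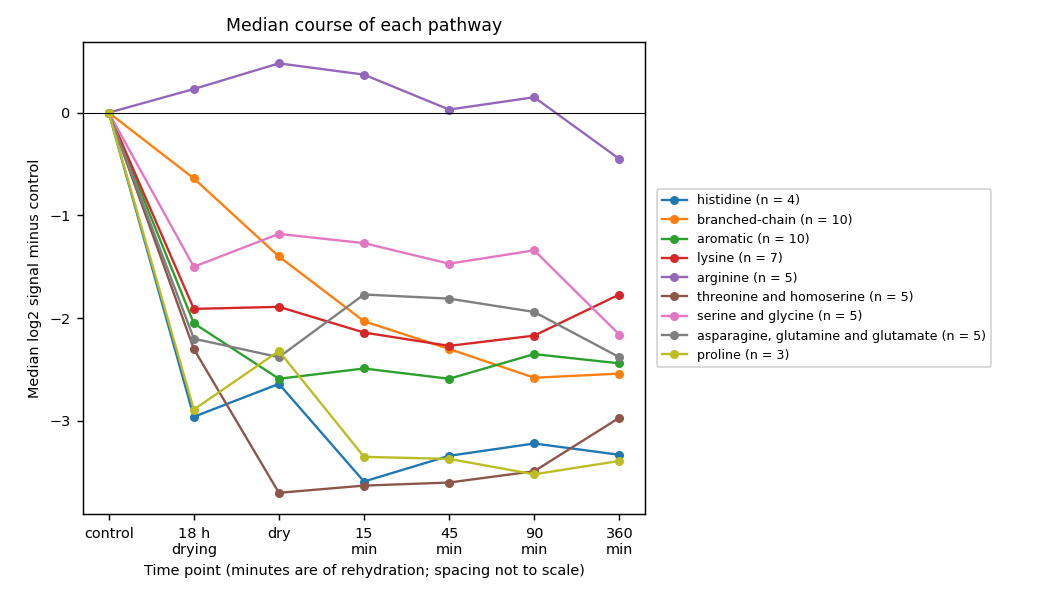
Median log2 signal minus control of the members of each pathway (n in the legend) at the 7 time points, in order but not to scale in time. The arginine median alone lies above the control at 18 h, at 0.23 (-0.06 with spike-in scaling), and is at -0.45 at 360 min, while the other medians lie between -1.77 and -3.39 at 360 min.

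Between 18 h and the dry state, a comparison of partial with full dryness, 23 members fell, 7 rose and 24 did not pass. The background was 39.2% called, 17.0% lower and 22.1% higher, and the median change was -0.37 against 0.06 over all probe sets. With median centring, which lowers all changes by 0.17 here, 26 members fell and 3 rose. THR1 (-2.20 ± 0.14) had the largest fall measured above background in both groups. HOM3 and SER2 were below background on all dry arrays and fell at least 4.78-fold and at least 2.56-fold, so their place among the falls is not settled. The rises were led by ARG1, HIS4 and SER1, of which HIS4 (0.83 ± 0.26) did not pass without 18 h replicate 2 (0.67), dry replicate 1 (0.76) or dry replicate 2 (0.80), or with median centring (0.66) or scan day as a block (0.67). Most branched-chain genes took part in the fall, with 6 of 10 lower and BAT1 lowest (-1.68 ± 0.13). In lysine synthesis 0 of 7 fell and LYS21 rose (0.31 ± 0.10), a call lost without any of 4 arrays (0.29 to 0.31 without them).

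The dry state, set against the control, spans the drying and the 72 h hold. Medium and temperature differed from the control too, and these cannot be told apart. Here 46 members fell (85.2%) and 4 rose, the background being 67.3% called, 27.2% lower and 40.1% higher. The median was -2.10, against 0.24 over all probe sets. HIS1 and ASN1 had the largest falls, with changes of -6.05 ± 0.15 and -5.65 ± 0.37. HOM3, below background when dry, has only the bound given above. The 4 that rose were ARG3 (3.87 ± 0.12), CPA1 (1.79 ± 0.11), BAT2 (0.67 ± 0.12) and ARG8 (0.48 ± 0.18). BAT2 did not pass with spike-in scaling (0.36), and ARG8 did not pass with quantile normalization (0.20), median centring (0.16) or spike-in scaling (0.17), or without control replicate 2 or 3 or dry replicate 1 or 3 (0.43 to 0.47).

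The first 15 min of rehydration moved members both ways, with 14 rising, 19 falling and 21 not passing. The background was 40.3% called, 12.8% higher and 27.5% lower, so 25.9% of members rose against 12.8% of probe sets, and 35.2% fell against 27.5%. This split is bound to the scaling. Quantile normalization gave 13 rises and 8 falls, median centring 22 and 4, and spike-in scaling 0 and 38, moving the median of all probe sets by 0.18, 0.38 and -0.73. With spike-in scaling 12 of the 14 risers changed sign and the others, HOM3 (0.72) and ARO8 (0.33), did not pass. In the fit to the deposited scaling the largest rises measured above background were those of ARO8 (1.05 ± 0.21) and LEU9 (0.65 ± 0.14, -0.08 with spike-in scaling). HOM3, below background when dry, rose at least 1.92-fold, a call not passing on the log2(value + 50) scale (0.57). SER2, counted among the falls, was below background in both groups. The falls of SER1, HOM2 and ARG3 given above were the largest and remained falls in all scalings tried.

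Few members passed the test between 15 and 90 min. From 15 to 45 min 0 of 54 passed limma's adjusted threshold, with a background of 0.42% called, while 8 had an unadjusted p under 0.05, 4 higher and 4 lower. A fit with only these groups also called 0, and without 45 min replicate 3 the count was 1. From 45 to 90 min, with a background of 5.48% called, 3.31% lower and 2.17% higher, 2 members fell and 0 rose. They were ILV3, with 534.5, 716.3 and 482.1 at 90 min against 876.0, 847.1 and 1010.6 at 45 min (-0.67 ± 0.13), and LEU1, with 1401.9, 1199.2 and 1272.4 at 90 min against 1656.9, 1922.7 and 1807.8 at 45 min (-0.48 ± 0.12). The LEU1 call was lost without 45 min replicate 2 or 3 or 90 min replicate 2 or 3 (-0.42 to -0.47), and both calls were lost in a fit with only these groups. Arrays of 90 min were scanned on other days than those of 45 min, so day and group cannot be told apart in this step.

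Between 90 and 360 min 10 members rose, 10 fell and 34 did not pass, with a background of 37.4% called, 15.4% higher and 22.0% lower. The median of the members was 0.05 and that of all probe sets -0.02. HIS1 (1.28 ± 0.15), PRO1 (1.21 ± 0.37) and GDH1 (0.95 ± 0.17) had the largest rises, and GLT1, GLN1 and ARO3 (-1.06 ± 0.10) the largest falls. The PRO1 call was lost without 90 min replicate 1 (0.78) or 360 min replicate 3 (1.03). Spike-in scaling, which lowers all changes by 0.96 here, gave 0 rises and 38 falls. It turned 8 of the 10 rises negative and left HIS1 (0.32) and PRO1 (0.25) positive but not passing.

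Over rehydration as a whole, from the dry state to 360 min, 16 members rose, 23 fell and 15 did not pass, and the background was 61.9% called, 21.2% higher and 40.7% lower. The median was -0.18, against -0.29 over all probe sets. Among members above background in both groups HIS1 and ARO8 rose most (2.33 ± 0.15 and 2.12 ± 0.21), HOM3 having risen at least 3.40-fold, and GLT1, GLN1 and ARO3 fell most (-2.60 ± 0.13, -2.03 ± 0.24 and -1.86 ± 0.10). No pathway moved one way throughout, though in arginine synthesis 4 of 5 fell and in serine and glycine synthesis 3 of 5 fell and 0 rose. The arginine count depends on the scaling. ARG4 (-0.42) became 0.03 with quantile normalization and 0.10 with median centring, neither passing. Its call was also lost without dry replicate 1 or 2 or 360 min replicate 1 or 3. Quantile normalization gave 19 rises and 13 falls, median centring 23 and 10, and spike-in scaling 0 and 50, with shifts of the median of all probe sets of 0.26, 0.52 and -2.01. The groups were scanned on different days, so day and group cannot be told apart here.

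Set against the control, most of these transcripts were lower in the cells at 360 min of rehydration. Here 48 members were lower (88.9%), 5 were higher and only SER3 did not pass (-0.37 ± 0.17), the background being 70.1% called, 36.4% lower and 33.7% higher. The median was -2.33, against -0.01 over all probe sets, and spike-in scaling lowers both by 2.32. The arrays of the groups did not overlap for 53 of the 54, 48 of them lower, while 76.0% of all probe sets did not overlap, 38.9% being lower. ARO4 and ASN1 had the largest falls measured above background (-4.51 ± 0.37 and -3.89 ± 0.37), and SER2, below background at 360 min, was at least 7.45-fold lower. The members above control were ARG3, CPA1, LYS20, BAT2 (1.21 ± 0.12) and LEU4 (1.17 ± 0.19), of which only ARG3 remained above with spike-in scaling. Control and 360 min arrays were scanned on different days, so day and group cannot be told apart.

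In 6 cases a step is served by a pair of paralogs, and within each pair the genes parted. The log2 ratio of paralog signals within an array is the same after median centring or spike-in scaling, though not after quantile normalization, and its differences among the 7 time points were tested by permutation (100000 resamples, adjusted over the 6 pairs). All 6 ratios differed, with adjusted p between 4e-05 and 0.00013. Other gene pairs were not tested for comparison, and 84.2% of all probe sets differed among the time points by limma's moderated F test. Near-identical paralogs can share hybridization, and LYS20 and LYS21 also have a common probe set that was not used, so a ratio may understate how far genes parted. Ratios are given for change over time only, since levels of different probe sets are not comparable.

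LEU4 and LEU9 encode the isopropylmalate synthases that open leucine synthesis. LEU9 fell to 72.8, 78.1 and 80.8 at 18 h, against 869.1, 829.8 and 886.8 in the control (-3.48 ± 0.14), while LEU4 read 3052.9, 3611.7 and 4138.9 at 18 h against 3403.3, 3620.7 and 3805.7 in the control (-0.01 ± 0.19). At 360 min LEU9 had 109.7, 119.6 and 119.7, and LEU4 had 7964.4, 7896.8 and 8467.4, which was 1.17 ± 0.19 above the control (0.36 and not passing with quantile normalization). The log2 ratio of LEU4 to LEU9 thus went up over the course, with means of 2.07 in the control, 5.53 at 18 h, 6.65 in the dry state, 6.73 at 45 min and 6.12 at 360 min. Its range of 4.67 compares with an SD of 0.29 within time points (adjusted p = 9e-05).

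BAT1 encodes the mitochondrial and BAT2 the cytosolic branched-chain aminotransferase. They moved in opposite directions at 18 h. BAT1 had 1160.6, 1242.1 and 1121.3 at 18 h, against 3519.3, 3362.9 and 3225.6 in the control (-1.52 ± 0.13), and BAT2 had 5160.6, 4983.9 and 4735.1 at 18 h against 2134.7, 2055.8 and 2173.3 in the control (1.22 ± 0.12). BAT1 fell further, to 304.1, 376.8 and 427.2 in the dry state, and read 470.7, 468.0 and 469.3 at 360 min. BAT2 had 3373.7, 3015.4 and 3794.6 in the dry state and 4751.6, 4734.3 and 5258.2 at 360 min. The log2 ratio of BAT1 to BAT2 had means of 0.67 in the control, -2.08 at 18 h, -3.21 in the dry state and -3.39 at 360 min, a range of 4.05 with an SD of 0.19 within time points (adjusted p = 4e-05).

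The ratio of ARO3 to ARO4 had a range of 4.77, with an SD of 0.51 within time points (adjusted p = 4e-05). Its means were 0.17 in the control, 3.17 at 18 h, 4.27 in the dry state, 4.94 at 15 min and 2.17 at 360 min. The mean was highest at 15 min, where ARO4 read 97.1, 43.1 and 30.6, the last near background. The permutation test takes all time points together and does not set 15 min against dry. The fall of ARO4 from dry to 15 min (-1.06) did not pass without any 1 of the dry arrays or 15 min replicate 2 or 3 (-0.70 without the last). For LYS20 and LYS21 the log2 ratio had means of 1.06 in the control, 2.49 at 18 h, 3.41 at 45 min and 3.79 at 360 min (range 2.74, adjusted p = 4e-05). LYS21 fell at 18 h, to 804.0, 859.5 and 795.1, against 2084.5, 1919.2 and 2067.1 in the control (-1.30 ± 0.10). It had 987.0, 993.0 and 1044.9 at 360 min, while LYS20 had risen above the control.

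SER3 and SER33 encode the phosphoglycerate dehydrogenases of the first serine step. SER33 had 220.4, 265.5 and 213.2 at 18 h, against 497.6, 515.7 and 563.9 in the control (-1.18 ± 0.13). SER3 had 298.2, 238.2 and 281.8 at 18 h, against 254.2, 235.8 and 270.7 in the control (0.10 ± 0.17), and 190.2, 190.2 and 209.2 at 360 min, where SER33 had 136.0, 137.9 and 151.7. Their log2 ratio had the smallest range of the 6, 1.52, with means of -1.05 in the control, 0.23 at 18 h and 0.47 at 360 min (adjusted p = 0.00013). ASN2, the other asparagine synthetase, fell less than ASN1, to 952.5, 795.5 and 1205.0 at 18 h, against 4340.6, 4657.1 and 4374.4 in the control (-2.20 ± 0.13). The log2 ratio of ASN1 to ASN2 had means of 0.06 in the control, -1.94 at 18 h, -3.21 in the dry state and -1.68 at 360 min (range 3.27, adjusted p = 9.6e-05).

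**Figure D4:**
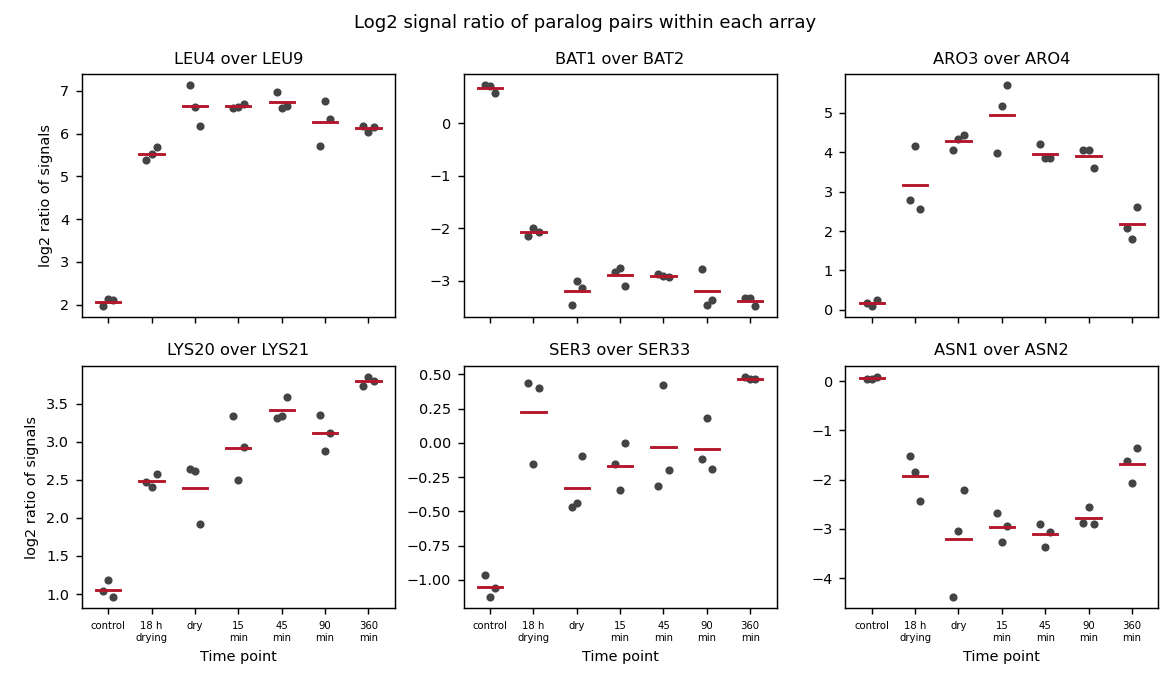
Log2 ratio of the signals of each paralog pair on each array (grey points, 3 per time point) with the mean of the time point (red line). The vertical axes differ between panels. The control arrays stand apart from all later arrays in all 6 panels, and the ratios of LEU4 to LEU9 and of BAT1 to BAT2 change mainly by the dry state while that of ARO3 to ARO4 turns back at 360 min.

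At 18 h, when 43 of the 54 members fell and 4 rose, 8 of 17 other enzymes of amino acid synthesis fell and 7 rose (median -0.04). That is 47.1% and 41.2%, against 27.3% of all probe sets lower and 36.2% higher. The difference between the members and this list was not tested. GDH3, the paralog of GDH1, had 5660.0, 6513.8 and 4495.8 at 18 h, against 140.1, 120.1 and 134.1 in the control (5.39 ± 0.24), and 14484.7, 16440.1 and 16143.7 at 360 min. GDH1 fell at 18 h, as given above. LYS5, which activates the LYS2 enzyme, had 1305.3, 1478.7 and 1392.0 at 18 h, against 312.3, 303.0 and 290.3 in the control. GLY1, the threonine aldolase, and ARG7, of ornithine synthesis, fell by 2.45 and 1.97 at 18 h (log2 changes -2.45 and -1.97). At 360 min relative to the control, 9 of the 17 were lower (52.9%) and 4 higher (23.5%). Of all probe sets, 36.4% were lower there and 33.7% higher.

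Of 11 genes of regulators, 8 rose at 18 h, 1 fell and 2 did not pass (median 1.11). Of all probe sets, 36.2% were higher and 27.3% lower. GCN4, the activator of general amino acid control, had 4763.0, 5054.9 and 4712.5 at 18 h, against 3286.3, 3188.6 and 4686.8 in the control. Control replicate 3 lay just under the lowest 18 h array, and the rise of 0.40 ± 0.13 (adjusted p = 0.0153) was lost without control replicate 1 (0.32) or 2 (0.30). In the dry state GCN4 did not differ from the control by the test (0.01 ± 0.13). These are transcript levels, while GCN4 is known to be controlled at translation. PHO2 and GLN3, activators linked to phosphate, purine and nitrogen genes, rose by 2.43 ± 0.17 and 1.85 ± 0.15, and ARG81 by 1.22 ± 0.12. The gene listed under its older name CPC2, today ASC1, a ribosomal protein that restrains general control, fell (-1.79 ± 0.14).

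Genes deleted in the strain and markers of other cell states were read as checks. URA3 was below background on all arrays, at 0.6 to 6.9. LEU2 had 30.5, 42.2 and 39.6 at 18 h, against 67.4, 77.3 and 63.8 in the control, and HIS3 had 129.0, 135.0 and 116.2 at 18 h, against 912.3, 944.3 and 997.6 in the control (-2.91). LEU2 in the control and HIS3 at both times thus read above background, although the known genotype lacks LEU2 and part of HIS3, and what these probe sets detect was not tested. MET17, of sulfur assimilation, fell to 1097.2, 1347.0 and 874.1 at 18 h, against 2119.0, 2113.6 and 2144.9 in the control. Of 11 haploid-specific genes, 7 were at background on all control arrays. The others read above background there. MFA2 had 175.0, 244.6 and 275.0, and RME1 had 238.1, 253.9 and 241.4. STE4 had 170.0, 155.9 and 158.2, and STE3 had 45.2, 64.3 and 45.4. STE18, HO and NEJ1 read at most 30.2 on any of the 21 arrays, and the summed signal of the list was 846.8 to 886.9 at 18 h, against 706.8 to 793.9 in the control. FUS3 had 100.3, 52.2 and 117.1 at 18 h, against 11.8, 4.9 and 12.2 in the control. MFA1 had 66.8, 54.4 and 56.7 at 18 h against 29.0, 20.1 and 17.2 in the control. GPA1 rose too, mostly below background, with 26.1, 26.1 and 30.7 at 18 h against 7.7, 9.9 and 6.5 in the control. RME1 changed by 0.37, a call lost without any of the control or 18 h arrays. Of the 11 genes, 4 rose at 18 h (36.4%, against 36.2% of all probe sets higher), 0 fell and 7 did not pass (median 0.0). The part of these genes in the members' changes was not tested.

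Diploid cells can enter meiosis and sporulation under starvation. Of 8 genes of that state 4 rose at 18 h and 4 did not pass, against 36.2% of all probe sets higher, and their summed signal was 3120.3 to 3354.3 at 18 h, against 292.9 to 351.7 in the control. Nearly all of this was IME1, the inducer of meiosis, with 3008.9, 2898.5 and 3056.1 at 18 h against 244.9, 232.5 and 204.1 in the control. IME2 had 104.1, 104.5 and 138.3 at 18 h against 39.3, 36.2 and 34.4 in the control, and SPS1 and DIT1, of later sporulation, read at most 50.6 on any array but rose at 18 h, DIT1 losing its call without most of the control or 18 h arrays (1.76 to 2.03). At 360 min the list summed to 294.1 to 347.0, with IME1 0.96 log2 units below the control (-0.96) and IME2 (1.25) and SPS1 (at least 1.37-fold) above it. With spike-in scaling IME2 and SPS1 were below the control instead (-1.07 and -0.67). The part of meiotic genes in the members' changes was not tested.

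Scan day was partly tied to the groups. The 3 control arrays and 18 h replicate 2 were scanned on day 1, and the other 18 h arrays on day 2 with the dry, 15 min and 45 min arrays. With scan day as a block, 44 members fell and 4 rose at 18 h relative to the control (median -1.74), an estimate that rests on the only 18 h array of day 1. A fit within day 1 uses the same arrays and is no separate check, and the block estimate for dry against control rests on that array too. For dry against 18 h the block left 7 rises and 23 falls, for dry against control 3 and 44, for 15 min against dry 14 and 21, and for 360 against 90 min 10 and 11.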

How the data were processed

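RNA of 21 samples was hybridized, 1 array each, to Affymetrix yeast arrays. Per the labels, the deposited intensity values came from the GeneChip software and a linear mixed model was used in the study. The labels do not say whether the deposited intensities precede that model or which algorithm summarised the probes. All arrays had a 2% trimmed mean of 500.2 to 500.6.

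Intensities were floored at 2.8, the 5th percentile of positive values (4.99% of values were at the floor), and put on the log2 scale. The 60 chip control probe sets were left out of the 9275 tested. A mean per time point was fitted with limma 3.58.1 in R 4.3.3, with Benjamini-Hochberg adjustment over all 9275. Other steps used Python 3.11.15, numpy 2.4.6, pandas 2.3.3 and matplotlib 3.10.9, and the fit was tested on simulated data. An array's precision is limited by there being 3 arrays per group. Where all arrays of a group were at or below background, a fold is given as a bound against the higher of background and the gene's own signal.

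Genes were named from the platform annotation, where 6504 probe sets list 1 gene, 328 list several and 2443 list none. ARG5,6 was not matched. The members and the other gene lists were chosen with earlier results of these data known. Signals by array are given for the members of each pathway with the largest changes at 18 h against control and at 360 min against dry, for paralogs and for members opposed to their pathway. In the other comparisons the 3 largest rises and falls were named. The signals of ILV5, LYS1, LYS2, HIS7 and HOM6 were added after values were seen. Comparisons share arrays, so their results are not independent. Scan days were read from the scanner files. Promoter motifs and sequences were not analysed here. The alternatives were other scalings (quantile, median centring and 9 spike-in probe sets), another floor, log2(value + 50), a filter on low values, only the groups compared, an intensity trend, replicate and scan day blocks, and each array left out.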

Additional observations from a re-analysis of the deposited data

How the results depend on the processing

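Of 3241 values of named members recomputed under the alternatives, 3115 kept their side of the threshold, those called also keeping direction. A further 87 lost the call, 10 gained it and 29 of called members changed sign. Changes of sign were not counted where the main fit had not passed. The cause was not tested for any of these changes. Scaling mattered most. With quantile normalization the members' median was -2.38 for dry against control, 0.06 for 15 min against dry (21 members called) and 0.08 for 360 min against dry, where LYS12 was 0.04, LEU4 -0.02, BAT2 -0.09 and CPA1 -0.32. With median centring the medians were -0.55 (dry against 18 h), -2.42 (dry against control), 0.29 (15 min against dry), 0.16 (360 against 90 min), 0.35 (360 min against dry, with LYS12 at 0.02 and HOM6 at 0.22) and -2.13 (360 min against control). With spike-in scaling the medians were -2.17 (18 h against control), -2.41 (dry against control), -0.82 (15 min against dry), -0.26 (90 against 45 min, 4 called), -0.91 (360 against 90 min, 38 called), -2.18 (360 min against dry) and -4.65 (360 min against control). It turned these rises negative: at 15 min against dry LEU9 (-0.08), ARO1 (-0.31), TRP5 (-0.36), HIS1 (-0.15), LYS20 (-0.20), SHM2 (-0.34) and THR1 (-0.13). At 360 against 90 min it turned GDH1 (-0.01), LEU9 (-0.43) and BAT2 (-0.64). At 360 min against dry it turned LEU9 (-0.56), LYS20 (-0.62), PRO1 (-0.89), THR1 (-0.84), LEU4 (-1.09), BAT1 (-1.65), BAT2 (-1.47), ASN1 (-0.24) and CPA1 (-1.67), and at 360 min against control CPA1 (-0.20), LYS20 (-0.59), LEU4 (-1.15) and BAT2 (-1.11). Whether arrays received equal amounts of target is not given, so spike-in scaling is no measure of RNA per cell. On the log2(value + 50) scale the medians were -1.57 (18 h against control), -1.94 (dry against control) and -2.22 (360 min against control), and 4 members were called for 90 against 45 min, as with the lowest 25% of probe sets left out and with an intensity trend. With only the groups compared, 20 were called for 15 min against dry, 0 for 90 against 45 min and 12 for 360 against 90 min. With scan day as a block the median for dry against control was -2.02. Leaving out each array in turn gave 46 to 48 members called for 18 h against control (median -1.90 to -1.72), 24 to 31 for dry against 18 h, 48 to 51 for dry against control, 25 to 35 for 15 min against dry, 0 to 1 for 45 against 15 min, 1 to 3 for 90 against 45 min, 16 to 21 for 360 against 90 min, 35 to 40 for 360 min against dry and 52 to 54 for 360 min against control. Same-numbered samples did not deviate together (correlations -0.134 to 0.093), so no pairing by replicate number was seen. Such correlations cannot show that the samples were unpaired. A fit with the replicate number as a block called 47, 29, 50, 33, 0, 2, 18, 39 and 53 members in the order 18 h against control, dry against 18 h, dry against control, 15 min against dry, 45 against 15, 90 against 45 and 360 against 90 min, 360 min against dry and 360 min against control. All 6 paralog ratios passed under the alternatives run for them, which were the other floor, log2(value + 50) and each array left out. Quantile normalization, the filter on low values and the blocks were not run for these ratios. Another choice of probe set gave no other value, since each member has 1. Signals near the background of 29.6 limit what HOM3, SER2, PRO1 and ARG3 can show.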
